A study of Mus musculus with 22 samples.

Results

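The collagen genes described here are the 32 genes with symbols of the form Col, a number, a and a number that appear in the expression tables of a mouse inhalation study, among 16697 genes listed in either of its tables. All 32 are listed for lung and 18 for liver, and no collagen gene is listed for liver only. Another 12 annotated collagen genes that the same rule selects (Col2a1, Col6a4, Col6a5, Col6a6, Col9a1, Col9a3, Col11a1, Col19a1, Col22a1, Col24a1, Col25a1 and Col26a1) are in neither table and were not analysed here. Messenger RNA was sequenced from whole liver and lung of male mice on the C57BL/6J background, aged 14 weeks. Exposed mice breathed benzene at 50 ppm for 6 hours a day and 5 days a week over 6 weeks, and control mice breathed air cleaned by carbon and HEPA filters. Lung was measured in 6 benzene and 6 air libraries, and liver in 5 benzene and 5 air libraries. The labels do not say that each library came from its own animal, so p-values measure the spread between these libraries, which may in part be technical.

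Collagens are the main structural proteins of the extracellular matrix. Their chains wind around one another in the endoplasmic reticulum, with the help of prolyl hydroxylases and a dedicated chaperone, and are then secreted, trimmed and crosslinked. Fibrillar collagens form the ropes that carry tension in the walls of airways, vessels and alveoli. Network-forming collagens build basement membranes, the sheets under epithelia and around vessels, and the thin barrier between alveolar epithelium and capillary. Membrane-spanning and anchoring collagens fasten epithelial cells to those sheets, and cartilage collagens belong to the rings and plates of the large airways. In liver, the fenestrated sinusoids carry little organised basement membrane, hepatic stellate cells are the usual source of fibrillar collagen, and hepatocytes are a known source of collagen XVIII.

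Values below are the deposited normalized values, which the authors headed CPM (read counts divided by a factor for each library). They correspond to 8400760 to 10021189 reads in benzene lungs and 8300876 to 11922169 reads in air lungs, and to 9705603 to 12710725 reads in benzene livers and 9459912 to 12420430 reads in air livers. The tissue labels were checked against defining genes: 5 of 5 hepatocyte genes lay at or above 6292 CPM in every liver, and 5 of 5 lung epithelial genes lay at or above 488 CPM in every lung and were not listed for liver. The lung library of air replicate 5 stood apart, with 894 listed genes at 0 reads against 13 to 61 in the other 11 lung libraries. Its deposited values sum to 1325414, against 937491 to 1010487 in those 11, so they are not scaled to 1 total and are highest in sum there. It was the lowest of the air lungs for 22 of 32 collagens (68.8%) and the highest for 7 (21.9%), against 40.5% and 37.4% of all 15706 genes tested. Lung results are therefore given with all libraries, and the collagen calls and part of the changes also without air replicate 5. A lung change given without such a label is from all libraries, and its dependence on air replicate 5 is not shown. In whole tissue, more or fewer cells of a type and more or less RNA per cell cannot be told apart.

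In lung, 4 of the 31 collagens tested rose and 0 fell with benzene: Col17a1, Col4a3, Col23a1 and Col10a1. Of these, Col10a1 rests on 0 to 25 reads a library, entered the test only through the benzene group and was called in 4 of 19 alternative settings. Over all 15706 genes tested 3.38% rose and 2.29% fell by the same rule, 5.67% in either direction. At an unadjusted p under 0.05 there were 7 of the 31 collagens, about the share of all genes in either direction (22.2%). All 7 were higher with benzene, and the share of all genes by direction was not computed at this level. A gene was called when limma's moderated test on log2(CPM + 1) gave a Benjamini-Hochberg adjusted p under 0.05 over all genes tested, and changes are given on that scale, benzene over air, with their standard error (SE), a scale that understates the change of low genes. Without air replicate 5, 7 collagens rose (those 4, Col4a4, Col4a5 and Col12a1) and 1 fell (Col15a1), against 7.63% and 7.02% of all genes, 14.7% in either direction. The 4 genes called with all libraries therefore remained called without it. The groups did not overlap, with every benzene lung above every air lung, for 5 collagens both with and without that library (Col17a1, Col23a1, Col4a3, Col4a4 and the sparse Col10a1), against 3.67% of all genes with that library and 5.06% without it. For 0 collagens was every benzene lung below every air lung, against 2.46% and 4.11% of all genes. The median change over the collagens was 0.18 with all libraries, beside 0.013 over all genes, and 0.03 without air replicate 5, beside -0.0016.

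**Figure D1:**
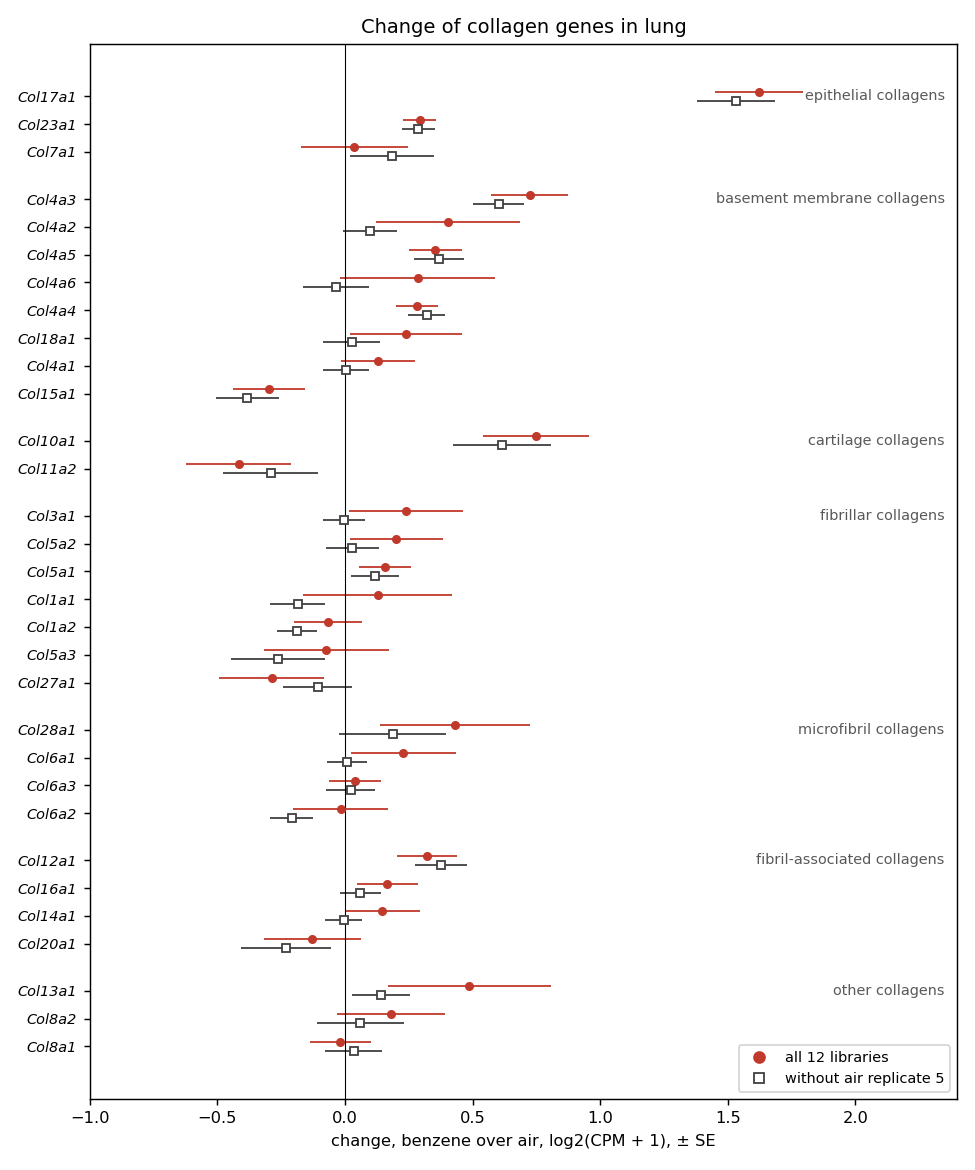
Change of each of the 31 tested lung collagens, benzene over air, on the log2(CPM + 1) scale with its SE, by collagen class, from all 12 libraries (filled circles) and without air replicate 5 (open squares). Col17a1 stands at 1.62, and most fibrillar and microfibril collagens move down once air replicate 5 is left out.

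The collagens of epithelial cells held the largest change among the 31 tested lung collagens. Col17a1 (ENSMUSG00000025064, chr19:47646344-47692094, minus strand, GRCm38) encodes collagen XVII, the membrane-spanning collagen of hemidesmosomes, which rivet basal epithelial cells to the basement membrane. It had 17.4, 13.6, 13.5, 10.3, 13.2 and 13.0 CPM in the 6 benzene lungs, against 2.43, 3.91, 4.95, 4.73, 2.399 and 4.22 CPM in the 6 air lungs. The lowest benzene lung, at 10.3 CPM, was far above the highest air lung, at 4.95 CPM. The means were 13.5 ± 2.25 CPM with benzene and 3.77 ± 1.11 CPM with air (SD, n = 6 each), a ratio of 3.57. The change was 1.62 ± 0.17 (limma adjusted p = 2.18e-05), and 1.53 ± 0.15 without air replicate 5 (limma adjusted p = 3.11e-07).

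The start of Col17a1 is shown because it was the collagen with the largest change. The RefSeq window on GRCm38.p6 (chr19:47691993-47692292, minus strand) runs from 250 bases before the RefSeq start to 50 bases after it, and capitals mark 2 copies of TATAAA and the CCAAT box, here read on the opposite strand as ATTGG.
Col17a1: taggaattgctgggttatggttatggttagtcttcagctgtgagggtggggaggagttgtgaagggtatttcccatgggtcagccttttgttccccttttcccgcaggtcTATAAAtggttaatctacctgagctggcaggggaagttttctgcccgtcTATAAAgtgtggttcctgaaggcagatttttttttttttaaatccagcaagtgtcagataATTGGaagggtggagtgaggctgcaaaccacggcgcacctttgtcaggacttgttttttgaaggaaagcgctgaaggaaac
The TATAAA copies begin 140 and 91 bases before the RefSeq start and the CCAAT box 31 bases before it. GENCODE places the start of the gene 52 bases further upstream. Searched on both strands, TATAAA occurred in 13.6% and CCAAT in 37.4% of 32851 RefSeq windows of the same length. Of the 27 collagens with such a window, 5 held TATAAA (Col3a1, Col10a1, Col11a2, Col13a1 and Col17a1) and 9 held CCAAT. The GC box GGGCGG was found in 17 of the 27, against 35.7% of all windows, and the AP-1 motif TGANTCA in Col6a1 only, against 7.81%. No promoter window was at hand for Col1a1, Col4a3, Col5a2, Col12a1 and Col14a1.

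Col23a1 (ENSMUSG00000063564, chr11:51289920-51583918, plus strand) encodes a smaller membrane-spanning collagen. It had 90.6, 80.6, 90.2, 82.5, 81.7 and 85.4 CPM in benzene lungs, against 70.4, 67.4, 67.5, 73.3, 67.9 and 69.4 CPM in air lungs. The groups did not overlap, and air replicate 5 lay inside the range of the other air lungs. The change was 0.29 ± 0.06 (limma adjusted p = 0.0140) and 0.29 ± 0.06 without air replicate 5 (limma adjusted p = 0.00435). Col7a1, the collagen of the anchoring fibrils that tie the basement membrane to the tissue beneath, had 6.24 to 9.19 CPM in benzene lungs and 5.35 to 13.9 CPM in air lungs. The benzene range lay inside the air range, and the change of 0.04 ± 0.21 did not pass the test (limma adjusted p = 0.928). The summed CPM of the 3 epithelial collagens was 102 to 117 in benzene lungs and 78.8 to 84.3 in air lungs, without overlap, and most of it was Col23a1.

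**Figure D2:**
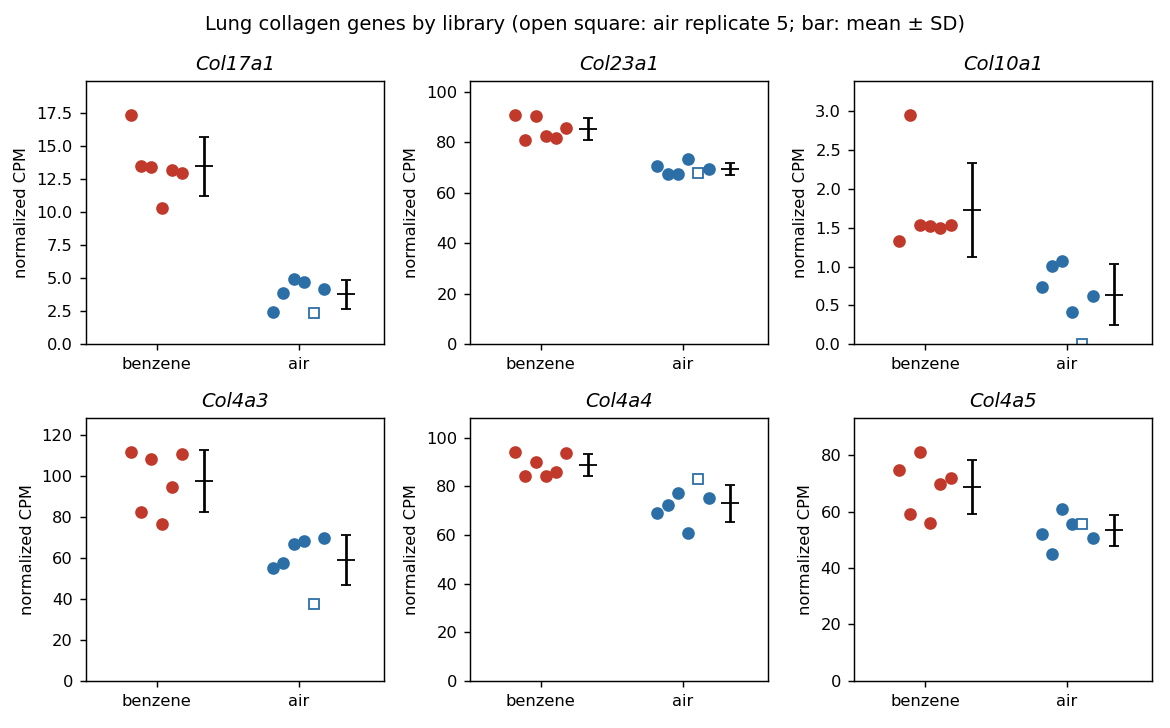
Normalized CPM of 6 collagen genes in each lung library, benzene left and air right, each axis starting at 0; points are libraries, the open square is air replicate 5 and the bar is the mean with its SD (n = 6 each). All benzene points lie above all air points in every panel except that of Col4a5, where 56.0 and 59.1 CPM with benzene fall below 61.1 CPM with air.

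Markers of stratified squamous epithelium, a tissue rich in hemidesmosomes, were also higher in benzene lungs. Of 12 such markers 11 were listed and all 11 rose, where 3.38% of all genes rose. This list was chosen with earlier results of these data known, so the count is a description and no independent support. Of the 11, Dsg3 and Dsc3 reached 1 CPM in 6 of 6 benzene lungs but in 0 and 1 of 6 air lungs, so they entered the test only through the benzene group and had to differ. The summed CPM of the 11 markers was 3185 to 3534 in benzene lungs and 244 to 344 in air lungs. Krt13, a keratin of the upper layers, averaged 1567 ± 83.3 CPM with benzene and 131 ± 23.4 CPM with air (SD, n = 6 each), a change of 3.60 ± 0.12. Krt5, a keratin of basal cells that airways and oesophagus share, averaged 80.9 ± 5.58 CPM with benzene and 13.2 ± 4.19 CPM with air, a change of 2.60 ± 0.21. Krt4, Pkp1 and Sprr1a had changes of 3.70, 3.71 and 3.54, and Trp63, the regulator of basal cells, of 0.62. The part of these cells in the Col17a1 result was not tested. Of the 10 hemidesmosome and anchoring partners, 0 were called in either direction by limma with all libraries. Itgb4, the integrin chain that binds collagen XVII at the hemidesmosome, had 18.9, 16.6, 22.5, 13.6, 17.2 and 21.3 CPM in benzene lungs, against 14.1, 20.1, 18.9, 15.6, 8.40 and 19.7 CPM in air lungs, and its change of 0.21 ± 0.19 did not pass the test (limma adjusted p = 0.525). Plec, the linker between hemidesmosome and keratin filaments, and Cd151, a membrane protein of the same complex, were the most abundant of these partners, and had changes of -0.36 ± 0.13 and 0.11 ± 0.17. Without air replicate 5, the laminin chains Lama3 and Lamb3 rose by 0.57 and 0.24, and Plec fell by 0.46 on the log2 scale. In that setting 7.63% of all genes rose and 7.02% fell.

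Of the 8 basement membrane collagens, 1 rose in lung, Col4a3, and 0 fell, where 3.38% of all genes rose and 2.29% fell. When air replicate 5 was left out, 3 rose and 1 fell, where 7.63% of all genes rose and 7.02% fell. Collagen IV exists as more than one network. Chains from Col4a1 and Col4a2 build the network found under nearly all epithelia and vessels, and chains from Col4a3, Col4a4 and Col4a5 build a more heavily crosslinked network found in few places, the alveolar and the glomerular basement membrane among them. Col4a3 (ENSMUSG00000079465, chr1:82586921-82722059, plus strand) had 112, 82.5, 108, 76.6, 94.4 and 111 CPM in benzene lungs, against 54.8, 57.3, 66.5, 68.3, 37.6 and 69.8 CPM in air lungs. Every benzene lung was above every air lung, and air replicate 5 was the lowest of all. The change was 0.72 ± 0.15 (limma adjusted p = 0.00962) and 0.60 ± 0.10 without air replicate 5 (limma adjusted p = 3.03e-04).

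Col4a4 (ENSMUSG00000067158, chr1:82448423-82586849, minus strand) had 94.1, 84.4, 90.0, 84.1, 86.0 and 93.7 CPM in benzene lungs, against 69.3, 72.5, 77.3, 60.9, 83.1 and 75.0 CPM in air lungs. The groups did not overlap, although the nearest values were 84.1 CPM in benzene replicate 4 and 83.1 CPM in air replicate 5. The change of 0.28 ± 0.08 missed the threshold (limma adjusted p = 0.0566) and passed it without air replicate 5, at 0.32 ± 0.07 (limma adjusted p = 0.00462). Col4a5 (ENSMUSG00000031274, chrX:141475385-141689234, plus strand) had 74.6, 59.1, 81.1, 56.0, 69.9 and 71.9 CPM in benzene lungs, against 52.2, 44.9, 61.1, 55.5, 55.8 and 50.7 CPM in air lungs. The groups overlapped, with benzene replicates 2 and 4 below the highest air lung. The change of 0.35 ± 0.10 likewise missed the threshold with all libraries (limma adjusted p = 0.0626) and passed without air replicate 5, at 0.37 ± 0.10 (limma adjusted p = 0.0144).

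Col4a1 had 445, 353, 479, 341, 436 and 443 CPM in benzene lungs, against 397, 456, 443, 361, 245 and 406 CPM in air lungs. Its groups overlapped, and its change was 0.13 ± 0.15 (limma adjusted p = 0.605) with all libraries and 0.01 ± 0.09 without air replicate 5. Col4a2 had 255 to 419 CPM in benzene lungs and 291 to 353 CPM in 5 air lungs, with 87.3 CPM in air replicate 5. Its change was 0.40 ± 0.28 (limma adjusted p = 0.406), and 0.10 ± 0.10 without that library. Col4a6, a chain of smooth-muscle and bronchial basement membranes, had 13.0 to 20.6 CPM in benzene lungs and 13.4 to 20.97 CPM in 5 air lungs, with 3.75 CPM in air replicate 5. Its change was 0.29 ± 0.30 with all libraries and -0.04 ± 0.13 without that library, and neither passed the test (limma adjusted p = 0.588 and 0.884).

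The 6 collagen IV genes lie head to head as neighbours that are read in opposite directions, and the starts of both kinds of neighbours are shown because Col4a3 and Col4a4 both had groups that did not overlap, while the groups of Col4a1 and Col4a2 overlapped. In GENCODE the starts of Col4a3 and Col4a4 lie 72 bases apart, the starts of Col4a5 and Col4a6 lie 1309 bases apart, and the first exons of Col4a1 and Col4a2 overlap by 22 bases. Capitals mark the 71 bases between the starts of Col4a4 and Col4a3 (chr1:82586800-82587099, minus strand, ending inside Col4a4) and the 22 bases shared by Col4a1 and Col4a2 (chr8:11312777-11313076, minus strand, ending inside Col4a1), both in RefSeq windows on GRCm38.p6.
Col4a4: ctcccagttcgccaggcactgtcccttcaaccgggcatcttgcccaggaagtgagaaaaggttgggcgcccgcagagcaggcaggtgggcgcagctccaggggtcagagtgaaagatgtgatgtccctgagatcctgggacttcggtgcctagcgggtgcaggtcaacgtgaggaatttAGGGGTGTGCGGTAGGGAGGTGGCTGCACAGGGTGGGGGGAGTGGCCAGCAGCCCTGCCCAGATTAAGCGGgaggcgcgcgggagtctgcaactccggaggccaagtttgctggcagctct
Col4a1: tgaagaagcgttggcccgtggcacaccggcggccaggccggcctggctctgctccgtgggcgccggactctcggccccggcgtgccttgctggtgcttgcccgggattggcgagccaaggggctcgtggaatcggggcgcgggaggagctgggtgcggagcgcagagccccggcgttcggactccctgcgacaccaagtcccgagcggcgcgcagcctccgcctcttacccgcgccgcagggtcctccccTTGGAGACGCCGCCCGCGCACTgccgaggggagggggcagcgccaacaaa
The Col4a4 window held none of the 4 motifs searched, and the Col4a1 window held a GC box and a CCAAT box. Whether reads were counted by strand is not given in the sources used here, so reads from the 22 shared bases could be counted for either gene.

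To set chains side by side within a library, ratios between them were formed per library from CPM per kilobase of exon. These ratios were chosen after the values had been seen and are descriptions without a test. How often ratios of other gene couples separate the groups was not computed. The ratios of Col4a4 and Col4a5 to Col4a3, Col5a2 to Col5a1, Col3a1 and Col1a1 to Col1a2, and Col6a3 to Col6a1 overlapped between all benzene and all air lungs. The ratio of Col4a3 to Col4a1 was 0.162 to 0.188 in benzene lungs, against 0.0941 to 0.142 in the 5 other air lungs and 0.115 in air replicate 5, so the groups did not overlap with or without that library. The ratio of Col4a5 to Col4a1 was 0.178 to 0.188 in benzene lungs, against 0.109 to 0.171 in the 5 other air lungs and 0.253 in air replicate 5. The ratio of Col4a4 to Col4a1 was 0.132 to 0.174 in benzene lungs, against 0.112 to 0.130 in the 5 other air lungs and 0.239 in air replicate 5. Both lay higher in benzene lungs than in those 5 air lungs, and air replicate 5 was above all benzene lungs for both. The ratio of Col4a2 to Col4a1, partners in a single network, was 0.845 to 0.987 in benzene lungs, against 0.813 to 0.908 in the 5 other air lungs and 0.402 in air replicate 5, and those ranges overlapped. The ratio of Col4a6 to Col4a5 was 0.185 to 0.241 in benzene lungs, against 0.252 to 0.289 in the 5 other air lungs and 0.0566 in air replicate 5, lower in benzene lungs than in the 5 other air lungs.

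**Figure D3:**
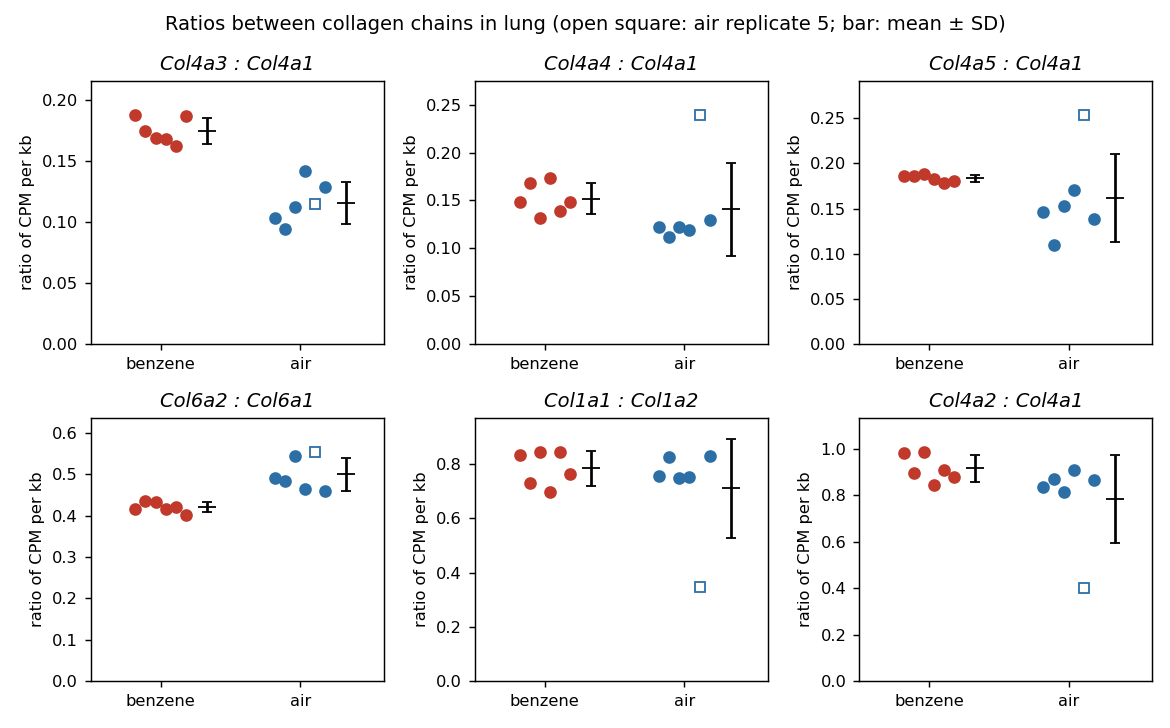
Ratio of CPM per kilobase of exon between 6 couples of collagen chains in each lung library, benzene left and air right, each axis starting at 0; the open square is air replicate 5 and the bar is the mean with its SD (n = 6 each). Col4a3 to Col4a1 lies higher and Col6a2 to Col6a1 lower in all benzene lungs than in all air lungs, and air replicate 5 stands far from the other air lungs in the panels of Col4a4, Col4a5, Col1a1 and Col4a2.

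The other basement membrane collagens carry heparan or chondroitin sulfate chains and release fragments that restrain vessel growth. Col15a1 (ENSMUSG00000028339, chr4:47208161-47313167, plus strand), found around vessels and muscle fibres, had 8.68, 7.54, 9.30, 7.49, 9.94 and 9.21 CPM in benzene lungs, against 13.6, 12.6, 12.3, 9.04, 7.80 and 10.8 CPM in air lungs. The groups overlapped. The change of -0.30 ± 0.14 did not pass the test with all libraries (limma adjusted p = 0.235) and passed it without air replicate 5, at -0.38 ± 0.12 (limma adjusted p = 0.0438), the only tested collagen that fell there. Markers of skeletal muscle, whose fibres are wrapped in collagen XV, were also lower in benzene lungs. Air replicate 5 went the other way, with the highest marker sum and the lowest Col15a1 (7.80 CPM) of the air lungs. Of 10 markers 7 fell with all libraries, where 2.29% of all genes fell. Of the 7, Myh2 reached 1 CPM in 6 of 6 air lungs but in 1 of 6 benzene lungs. It entered the test only through the air group and had to differ. The list was chosen with earlier results of these data known and holds no slow-fibre genes, so the count is a description only. The summed CPM of the 10 markers was 1227 to 1577 in benzene lungs, 1945 to 2124 in 5 air lungs and 4068 in air replicate 5. Myh2, a fast myosin chain, averaged 0.689 ± 0.338 CPM with benzene and 107 ± 22.5 CPM with air (SD, n = 6 each). Myh4, Pvalb and Tnnt3, also of fast fibres, had changes of -2.05, -3.60 and -1.02. The part of muscle in the Col15a1 result was not tested. Col18a1 had 39.3 to 65.4 CPM in benzene lungs and 18.9 to 53.6 CPM in air lungs, with the lowest value in air replicate 5, and its change of 0.24 ± 0.22 did not pass the test (limma adjusted p = 0.520). Of 12 other basement membrane genes 11 were tested and 0 were called in either direction by limma, where 5.67% of all genes were. The most abundant were Npnt, an integrin ligand, and the laminin chain Lamb2, which had changes of 0.43 ± 0.21 and -0.17 ± 0.09. Without air replicate 5, the proteoglycan Agrn rose by 0.34, where 7.63% of all genes rose.

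Markers of the alveolar epithelium, which rests on the Col4a3 network, were added after the collagen values had been seen and are given as a description. The 10 type I cell markers summed to 5875 to 7245 CPM in benzene lungs and 5994 to 7106 CPM in 5 air lungs, with 10035 CPM in air replicate 5. Of them 1, Akap5, rose, where 3.38% of all genes rose and 5.67% were called in either direction. The 10 type II cell markers summed to 28873 to 39709 CPM in benzene lungs and 33193 to 42778 CPM in 5 air lungs, with 85127 CPM in air replicate 5. Most of this sum was Sftpc alone, at a mean of 23562 CPM with benzene and 29984 CPM in the 5 air lungs. The median change over the 10 markers was 0.06 with all libraries and 0.02 without air replicate 5. Of them 0 passed the test with all libraries. Without air replicate 5, 1 type II marker rose (Etv5) and 1 fell (Muc1), where 7.63% of all genes rose and 7.02% fell. The summed endothelial markers were 2372 to 2642 CPM in benzene lungs and 2433 to 2738 CPM in air lungs, and 0 of 8 were called by limma with all libraries. Pecam1 and Cdh5, junction proteins of endothelial cells, had changes of -0.11 ± 0.09 and 0.11 ± 0.09. Emcn, a surface sialomucin of veins and capillaries, fell by 0.38 on the log2 scale without air replicate 5, where 7.02% of all genes fell. The part of these cells in the Col4a3 result was not tested.

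The cartilage collagens were near the lower end of what could be measured. Col10a1 (ENSMUSG00000039462, chr10:34389981-34397085, plus strand), the collagen of hypertrophic cartilage, had 1.33, 2.95, 1.53, 1.52, 1.501 and 1.53 CPM in benzene lungs, against 0.730, 1.01, 1.07, 0.415, 0 and 0.618 CPM in air lungs. The values rest on 0 to 25 reads, and the 0 reads in air replicate 5 allow up to 0.450 CPM (3 reads), a limit that covers counting error only. It reached 1 CPM in 6 of 6 benzene and 2 of 6 air lungs, and benzene replicate 2 alone reached 2.95 CPM. The change was 0.75 ± 0.21 (limma adjusted p = 0.0494), and the gene was also called without air replicate 5 (limma adjusted p = 0.0347). Col11a2, which joins thin cartilage fibrils, had 2.14, 2.00, 2.85, 1.52, 1.22 and 1.84 CPM in benzene lungs, against 1.70, 2.23, 2.23, 3.40, 4.95 and 3.40 CPM in air lungs. Its groups overlapped, and its change of -0.42 ± 0.21 did not pass the test (limma adjusted p = 0.252). Col9a2, a coat of cartilage fibrils, was below the minimum for testing, at 0.409 to 1.62 CPM in benzene lungs, 0.243 to 0.829 CPM in 5 air lungs and 3.30 CPM in air replicate 5. Col2a1, the main collagen of cartilage, and Acan, its main proteoglycan, are not listed. Of 12 cartilage markers 6 were listed and 5 tested, and 0 were called by limma with all libraries, where 5.67% of all genes were. Matn4 and Cytl1, the most abundant, had changes of -0.31 ± 0.23 and -0.24 ± 0.14, and the summed markers were 141 to 165 CPM in benzene lungs and 164 to 344 CPM in air lungs. Sox9, the regulator of chondrocytes, was below the minimum for testing, at 0.438 to 0.921 CPM in benzene lungs and 0.583 to 3.30 CPM in air lungs. Chad, a cartilage leucine-rich protein, fell by 0.67 on the log2 scale without air replicate 5, where 7.02% of all genes fell. The part of cartilage in the Col10a1 result was not tested.

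Of the 7 fibrillar collagens listed, 0 were called in lung by limma in either direction, with or without air replicate 5. Over all genes 5.67% were called with that library and 14.7% without it. With all libraries, 0 of the 7 had an unadjusted p under 0.05, against 22.2% of all genes. By edgeR and by DESeq2 the count of called fibrillar collagens was also 0. Col1a1, a chain of the most abundant tissue fibril, had 148, 112, 154, 95.2, 137 and 128 CPM in benzene lungs, against 133, 172, 136, 129, 38.5 and 160.1 CPM in air lungs. The lowest value of all was that of air replicate 5, and 3 benzene lungs were below the 5 other air lungs. The change was 0.13 ± 0.29 with all libraries (limma adjusted p = 0.811) and -0.19 ± 0.11 without air replicate 5 (limma adjusted p = 0.269). Its partner Col1a2 had 335, 291, 346, 258, 306 and 318 CPM in benzene lungs, against 333, 392.2, 345, 323, 211 and 365 CPM in air lungs. The change was -0.07 ± 0.13 with all libraries and -0.19 ± 0.08 without air replicate 5 (limma adjusted p = 0.783 and 0.114).

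Col3a1, the collagen of fine reticular fibres, had 197 to 282 CPM in benzene lungs and 227 to 263 CPM in 5 air lungs, with 87.1 CPM in air replicate 5. Its change was 0.24 ± 0.22 with all libraries and 0.00 ± 0.08 without that library. Col5a1 and Col5a2, chains that set fibril diameter, had changes of 0.16 ± 0.10 and 0.20 ± 0.18 with all libraries, and of 0.12 and 0.03 without air replicate 5. Col5a3, a less common chain of the same collagen, had a change of -0.07 ± 0.24, and Col27a1, a long cartilage-associated fibrillar collagen, of -0.29 ± 0.21. In Col27a1 air replicate 5 was the high library, at 31.9 CPM against 12.8 to 15.7 CPM in the other air lungs. The median change of the 7 fibrillar genes was 0.13 with all libraries and -0.11 without air replicate 5, so its sign turned on that library. Their summed CPM was 638 to 881 in benzene lungs and 797 to 891 in 5 air lungs, with 421 in air replicate 5.

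Of the 4 microfibril collagens, 0 were called in lung by limma with or without air replicate 5. Over all genes 5.67% were called with that library and 14.7% without it. Collagen VI forms beaded filaments that surround cells in the interstitium, from chains of Col6a1, Col6a2 and Col6a3. Col6a1 had 178, 154, 194, 155, 181 and 191 CPM in benzene lungs, against 172, 199, 176, 156, 68.7 and 169.6 CPM in air lungs. Col6a2 had 141, 128, 159, 122, 144 and 145 CPM in benzene lungs, against 160.4, 184, 181, 138, 72.3 and 148 CPM in air lungs. Both groups overlapped, and the changes were 0.23 ± 0.21 and -0.02 ± 0.19 with all libraries and 0.01 and -0.21 without air replicate 5. The ratio per kilobase of Col6a2 to Col6a1, whose genes are neighbours on chromosome 10, was 0.402 to 0.436 in benzene lungs, against 0.460 to 0.544 in the 5 other air lungs and 0.554 in air replicate 5, and every benzene lung was below every air lung. Like the ratios above, it was chosen after the values had been seen and was not tested. Col6a3 had a change of 0.04 ± 0.10. Col28a1, a low-level collagen of nerves, had 0.709 to 2.86 CPM in benzene lungs and 0 to 2.26 CPM in air lungs, and its change of 0.43 ± 0.29 did not pass the test (limma adjusted p = 0.393).

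Of the 4 fibril-associated collagens, which sit on the surface of fibrils and link them, 0 were called with all libraries and 1, Col12a1, rose without air replicate 5, where 7.63% of all genes rose. Col12a1 (ENSMUSG00000032332, chr9:79598991-79718831, minus strand) had 39.7, 32.5, 40.8, 27.2, 38.7 and 30.8 CPM in benzene lungs, against 24.8, 24.7, 26.0, 29.1, 33.6 and 27.7 CPM in air lungs. Benzene replicate 4 was below air replicates 4, 5 and 6, and otherwise 3 benzene lungs were above all air lungs. The change was 0.32 ± 0.12 with all libraries (limma adjusted p = 0.128) and 0.38 ± 0.10 without air replicate 5 (limma adjusted p = 0.0182). Col14a1, its close relative, had 46.8, 43.6, 44.7, 43.2, 45.2 and 46.1 CPM in benzene lungs, against 47.5, 47.2, 45.4, 39.1, 23.5 and 46.6 CPM in air lungs, and had a change of 0.15 ± 0.15 with all libraries and 0.00 ± 0.07 without air replicate 5. Col16a1, at 37.1 to 48.6 CPM with benzene and 25.2 to 42.6 CPM with air, had a change of 0.17 ± 0.12. Col20a1, at 1.30 to 3.44 CPM with benzene and 1.65 to 3.91 CPM with air, had a change of -0.13 ± 0.19. Neither passed the test.

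Of the remaining 3 collagens 0 were called in lung by limma, where 5.67% of all genes were called with all libraries. Col13a1, a membrane-spanning collagen of cell contacts, had 34.2 to 52.4 CPM in benzene lungs and 28.7 to 46.1 CPM in 5 air lungs, with 8.25 CPM in air replicate 5. Its change was 0.49 ± 0.32 with all libraries and 0.14 ± 0.11 without that library. Col8a1 and Col8a2, short network chains of vessel walls and corneal membranes, had 13.6 to 20.3 and 11.7 to 20.4 CPM in benzene lungs, against 13.2 to 20.2 and 8.70 to 22.1 CPM in air lungs. Both overlapped, with changes of -0.02 ± 0.12 and 0.18 ± 0.21.

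Per kilobase of exon, which allows genes to be compared, Col4a1 was the highest collagen in lung, at a mean of 55.8 ± 7.47 CPM per kilobase with benzene and 51.5 ± 10.3 with air (SD, n = 6 each). Col4a2 followed, at 51.4 ± 9.44 with benzene and 41.7 ± 14.4 with air, and the ranges of Col4a1 and Col4a2 overlapped in both groups. Without air replicate 5 the means of the 5 air lungs were 55.3 ± 5.08 for Col4a1 and 47.4 ± 3.74 for Col4a2 (SD). Col6a1, Col1a2, Col3a1, Col1a1 and Col6a2 came next in both groups. Col23a1 was in the eighth place in both and was separated from the gene below it by its range. Col4a3 was in the tenth place among the 32 with benzene and in the fourteenth with air, and Col17a1 in the twenty-first with benzene and the twenty-seventh with air, but their ranges overlapped those of their neighbours in this order. Basement membrane collagens made up 43.1% ± 1.37 of the summed collagen CPM per kilobase in benzene lungs and 41.1% ± 0.557 in air lungs (SD, n = 6 each). Fibrillar collagens made up 23.8% ± 0.597 in benzene lungs and 25.8% ± 1.13 in air lungs, or 26.2% ± 0.339 in the 5 air lungs without air replicate 5. These levels depend on the annotated exon length, the union of all exons of a gene.

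Collagen levels also differed from library to library within the benzene group. Benzene replicate 4 was the lowest benzene lung for 20 of 32 collagens, against 24.0% of all genes tested. Benzene replicate 3 was the highest for 14 of 32, against 17.8% of all genes. For Col4a1, for example, benzene replicate 3 had 479 CPM and benzene replicate 4 had 341 CPM.

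Of 17 tested genes of collagen folding and hydroxylation, 0 rose and 3 fell, where 2.29% of all genes fell: P4ha2, Serpinh1 and P4ha1. Serpinh1, the collagen-specific chaperone HSP47, had 218, 208, 227, 194, 214 and 196 CPM in benzene lungs, against 307, 294, 302, 316, 233 and 318 CPM in air lungs. Every benzene lung was below every air lung, air replicate 5 included. The change was -0.48 ± 0.09 (limma adjusted p = 0.00309). P4ha1, the main catalytic chain of prolyl hydroxylase, had 82.5, 95.4, 90.4, 86.5, 93.2 and 92.7 CPM in benzene lungs, against 109.6, 115, 113, 109, 107 and 106 CPM in air lungs, without overlap. Its change was -0.29 ± 0.06 (limma adjusted p = 0.0159). P4ha2, an alternative catalytic chain, had a change of -0.53 ± 0.08 (limma adjusted p = 4.87e-04). The median change over the 17 genes was -0.04, beside 0.013 over all genes. Without air replicate 5, the cyclophilin Ppib also fell, by 0.21 on the log2 scale, and Colgalt2, which adds galactose to collagen, rose by 0.60. Without that library 14.7% of all genes were called in either direction, which also holds for the calls given without it below.

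Of 11 tested genes of trimming and crosslinking, 0 rose and 1 fell, where 2.29% of all genes fell. Loxl1, a lysyl oxidase best known for elastin, had 69.1, 55.5, 63.5, 66.0, 61.9 and 67.5 CPM in benzene lungs, against 79.0, 92.5, 79.9, 80.5, 101 and 84.8 CPM in air lungs, without overlap. Its change was -0.43 ± 0.08 (limma adjusted p = 0.00735). Lox, the lysyl oxidase that crosslinks fibrillar collagen, had 43.5, 47.9, 42.8, 40.9, 41.8 and 48.4 CPM in benzene lungs, against 37.3, 31.2, 35.1, 40.8, 36.0 and 36.0 CPM in air lungs. Every benzene lung was above every air lung, by a narrow margin, and the change of 0.29 ± 0.08 just missed the threshold (limma adjusted p = 0.0570) and passed it without air replicate 5 (limma adjusted p = 0.0222). There Loxl2 and Pcolce, the enhancer of the C-proteinase, fell by 0.35 and 0.31 on the log2 scale. Of 11 tested genes of collagen breakdown, 0 were called by limma with all libraries, where 5.67% of all genes were. The inhibitors Timp3 and Timp2, the most abundant, had changes of 0.10 ± 0.08 and -0.05 ± 0.09, and the neutrophil collagenase Mmp8 fell by 0.56 on the log2 scale without air replicate 5. Of 8 collagen receptors 0 were called by limma with or without that library, and the integrin chains Itgb1 and Itga1 had changes of 0.23 ± 0.16 and -0.02 ± 0.11.

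Of 20 interstitial matrix partners 1 rose and 1 fell with all libraries, where 3.38% of all genes rose and 2.29% fell. Lum, a proteoglycan that spaces fibrils, had 22.3, 18.2, 20.4, 18.4, 15.2 and 20.0 CPM in benzene lungs, against 15.7, 10.3, 16.3, 12.7, 12.6 and 12.9 CPM in air lungs, with a change of 0.48 ± 0.13 (limma adjusted p = 0.0369). Mfap5, a microfibril protein of elastic fibres, had 38.5, 47.9, 40.7, 56.3, 44.2 and 56.9 CPM in benzene lungs, against 75.7, 76.4, 78.3, 51.0, 82.2 and 54.1 CPM in air lungs, with a change of -0.54 ± 0.14 (limma adjusted p = 0.0408). Both groups overlapped at their edges. Without air replicate 5, Postn, Ogn and Thbs1 also rose, by 0.25, 0.28 and 0.23, and elastin (Eln) fell, by 0.83 on the log2 scale. Of 11 tested fibroblast markers, Dpep1 rose by 0.32, and Pi16 and Twist2 fell by 0.40 and 0.69 on the log2 scale. All 3 were also called without air replicate 5, where Thy1, a surface glycoprotein, fell as well, by 0.42 on the log2 scale. The summed fibroblast markers were 6782 to 7318 CPM in benzene lungs and 5411 to 7509 CPM in air lungs. Among 12 markers of hepatic stellate cells, which lung lipofibroblasts and smooth muscle share in part, Lrat, which stores retinol as esters, rose by 0.62 and the smooth-muscle actin Acta2 fell by 0.57 on the log2 scale. Both were also called without air replicate 5, where Des, a muscle intermediate filament, fell as well, by 0.36 on the log2 scale.

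In the TGF-beta pathway, the best-known inducer of collagen synthesis, 0 of 17 genes rose and 1 fell with all libraries, where 2.29% of all genes fell. Tgfb1, the ligand, had 74.5, 74.5, 78.9, 83.2, 87.2 and 75.9 CPM in benzene lungs, against 103, 109.6, 88.2, 98.6, 106 and 96.7 CPM in air lungs. The groups did not overlap, and the change was -0.34 ± 0.08 (limma adjusted p = 0.0148). Ccn2, a matrix protein and target of the pathway that the tables list by its older name Ctgf, had 398, 433, 404, 486, 434 and 453 CPM in benzene lungs, against 370.3, 330.2, 375, 304, 417 and 309 CPM in air lungs. Its change of 0.31 ± 0.09 missed the threshold with all libraries (limma adjusted p = 0.0641) and passed it without air replicate 5 (limma adjusted p = 0.00212). The receptors Tgfbr1 and Tgfbr3 rose by 0.29 and 0.24 without that library, where Tgfb1 remained lower (-0.32).

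**Figure D4:**
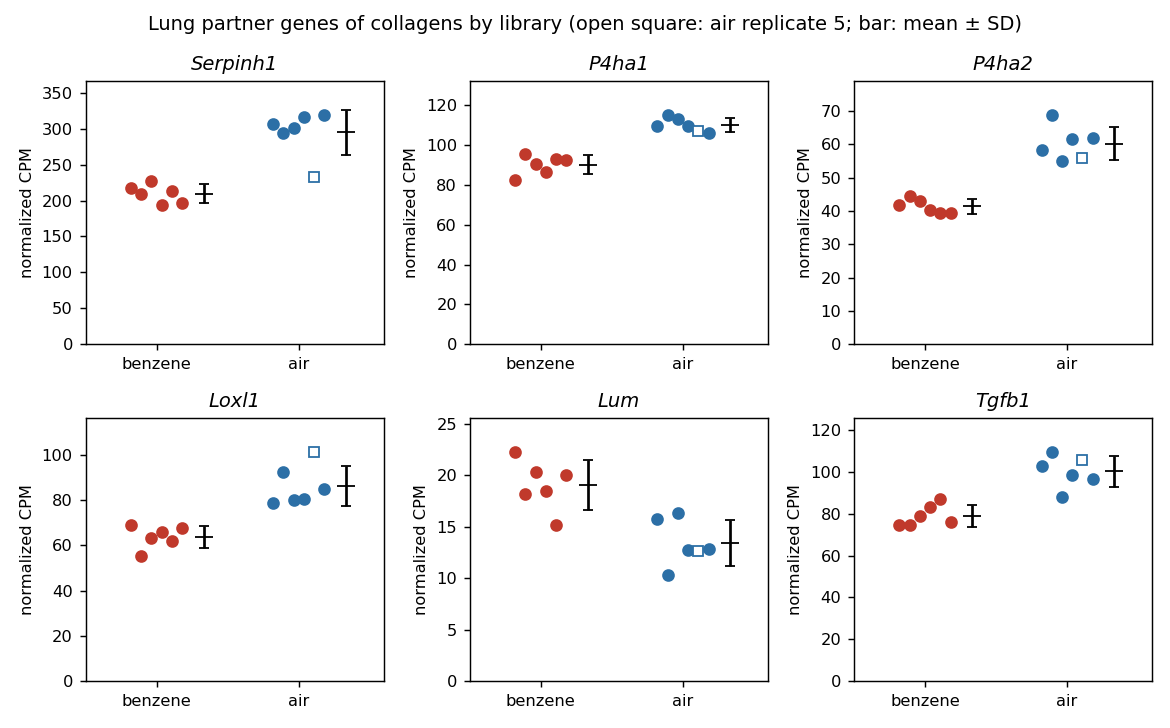
Normalized CPM of 6 partner genes of collagens in each lung library, benzene left and air right, each axis starting at 0; the open square is air replicate 5 and the bar is the mean with its SD (n = 6 each). Serpinh1, P4ha1, P4ha2, Loxl1 and Tgfb1 lie lower in all benzene lungs than in all air lungs, and Lum averages 19.1 CPM with benzene and 13.4 CPM with air.

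In liver, 0 of the 17 collagens tested were called by limma in either direction, where 0.819% of all genes rose and 0.735% fell, 1.55% in either direction. By edgeR and by DESeq2 the count was 0 as well. At an unadjusted p under 0.05 there were 2 of 17, Col5a3 and Col14a1, against 13.1% of all genes. None of the 18 listed had groups that did not overlap, against 2.07% higher and 2.18% lower over all genes. The 14 collagens listed for lung only include the 3 epithelial and the 3 cartilage collagens, Col4a3, Col4a4, Col4a5 and Col4a6, so the 4 collagens that rose in lung have no value in liver. Markers of squamous epithelium and of skeletal muscle are likewise not listed for liver.

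Col18a1 (ENSMUSG00000001435, chr10:77052178-77166548, minus strand) was the leading collagen of the liver. It had 772, 826, 751, 541 and 681 CPM in the 5 benzene livers, against 850.3, 859, 783, 782 and 786 CPM in the 5 air livers. Benzene replicates 1, 3, 4 and 5 were below all air livers and replicate 2 was inside their range. The change of -0.20 ± 0.09 did not pass the test (limma adjusted p = 0.382). Per kilobase it stood at 102 ± 15.7 CPM with benzene and 116 ± 5.57 with air (SD, n = 5 each). Col14a1 stood at 3.08 ± 0.304 with benzene and 2.59 ± 0.264 with air, and Col5a3 at 1.98 ± 0.488 with benzene and 2.83 ± 0.284 with air. Col14a1 came next after Col18a1 with benzene and Col5a3 with air, and the ranges of these 2 overlapped with air. Basement membrane collagens, mostly Col18a1, made up 90.2% ± 0.767 of the summed collagen CPM per kilobase in benzene livers and 91.0% ± 0.298 in air livers. The liver and lung tables were normalized separately, so levels are not compared between tissues.

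Col5a3 (ENSMUSG00000004098, chr9:20770050-20815067, minus strand) had 11.3, 16.1, 13.4, 9.25 and 17.3 CPM in benzene livers, against 20.2, 22.03, 17.0, 18.4 and 18.7 CPM in air livers. Benzene replicate 5 alone was above the lowest air liver. The change of -0.51 ± 0.15 had the lowest p of the liver collagens and did not pass the test (limma adjusted p = 0.102). Col14a1 (ENSMUSG00000022371, chr15:55307750-55520803, plus strand) had 20.6, 23.3, 23.7, 21.9 and 18.5 CPM in benzene livers, against 17.6, 18.2, 20.2, 15.4 and 19.4 CPM in air livers. The groups overlapped, and the change of 0.24 ± 0.11 did not pass the test (limma adjusted p = 0.344).

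Among the main fibrillar collagens of liver, Col3a1 had 12.6, 14.6, 14.6, 7.26 and 11.9 CPM in benzene livers, against 12.2, 10.3, 8.84, 8.32 and 10.02 CPM in air livers, a change of 0.25 ± 0.17. Col1a1 had 5.55, 6.82, 4.91, 4.24 and 4.24 CPM in benzene livers, against 5.96, 7.56, 6.68, 4.49 and 3.77 CPM in air livers, a change of -0.11 ± 0.18. Col1a2 had 8.24, 9.38, 8.58, 7.61 and 9.50 CPM in benzene livers, against 7.36, 9.18, 7.19, 9.13 and 7.35 CPM in air livers, a change of 0.10 ± 0.13. All 3 overlapped between groups. Their levels rest on 41 to 188 reads a library. Col5a1 and Col27a1 had changes of -0.45 ± 0.28 and -0.14 ± 0.12, and Col5a2 was below the minimum for testing, at 0.310 to 2.48 CPM with benzene and 0.489 to 0.756 CPM with air. Among the basement membrane chains, Col4a1, Col4a2 and Col15a1 had changes of -0.10 ± 0.16, -0.21 ± 0.13 and 0.22 ± 0.19. The chains Col6a1, Col6a2 and Col6a3 had changes of 0.05 ± 0.16, -0.02 ± 0.19 and -0.23 ± 0.19. Col16a1 and Col13a1, at 5 to 41 and 7 to 21 reads a library, had changes of 0.00 ± 0.29 and -0.11 ± 0.20, and Col12a1, at 7 to 23 reads, of -0.35 ± 0.21. None of these passed the test. The median change over the 17 liver collagens was -0.11, beside 0.0016 over all genes.

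**Figure D5:**
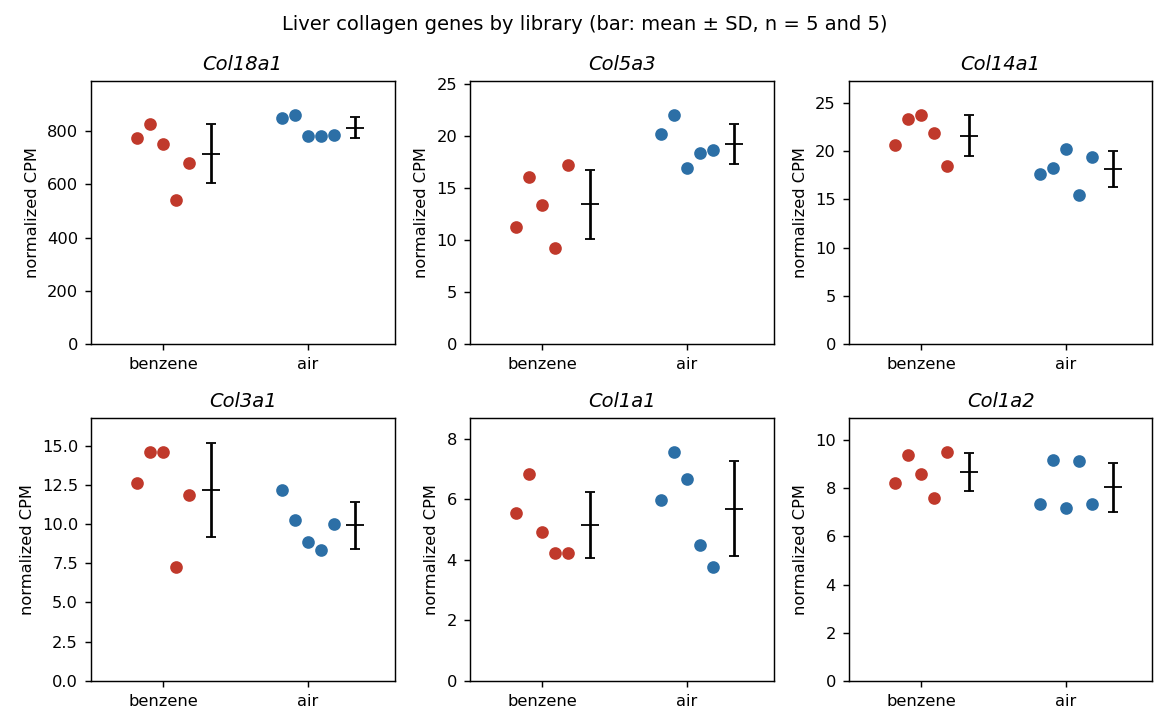
Normalized CPM of 6 collagen genes in each liver library, benzene left and air right, each axis starting at 0; the bar is the mean with its SD (n = 5 each). The groups overlap in all 6 panels, and Col18a1 lies between 541 and 859 CPM, far above the other 5 genes.

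Of 12 tested folding genes, 5 of trimming and crosslinking, 6 of breakdown, 4 receptors, 12 interstitial and 10 basement membrane partners, 0 were called by limma. Serpinh1 had 3.43 to 8.24 CPM in benzene livers and 5.79 to 9.03 CPM in air livers, and P4ha1 9.60 to 11.99 CPM in benzene livers and 9.97 to 13.3 CPM in air livers. The most abundant folding genes, the disulfide isomerase P4hb and the cyclophilin Ppib, had changes of -0.03 ± 0.06 and -0.21 ± 0.07. The C-proteinase Bmp1 and the lysyl oxidase Loxl3 had changes of -0.13 ± 0.08 and -0.04 ± 0.16, and the membrane collagenase Mmp14 and the inhibitor Timp3 of -0.17 ± 0.15 and 0.11 ± 0.10. Fibronectin (Fn1) and the fibril-binding proteoglycan Dcn had changes of -0.08 ± 0.09 and 0.24 ± 0.10, the receptors Itgb1 and Itga1 of 0.10 ± 0.08 and -0.18 ± 0.13, and the proteoglycans Agrn and Hspg2 of -0.03 ± 0.16 and 0.22 ± 0.15. Of 7 hemidesmosome and anchoring partners 1 fell, where 0.735% of all genes fell. Plec had 54.2, 61.6, 59.6, 37.7 and 43.2 CPM in benzene livers, against 69.5, 73.6, 70.3, 70.3 and 71.2 CPM in air livers, without overlap, and a change of -0.49 ± 0.11 (limma adjusted p = 0.0416). Of 13 TGF-beta pathway genes 1 rose, where 0.819% of all genes rose. Smad7, the inhibitory SMAD, had 11.2, 11.3, 9.83, 10.3 and 11.6 CPM in benzene livers, against 6.22, 7.99, 7.71, 6.03 and 8.27 CPM in air livers, without overlap, and a change of 0.53 ± 0.13 (limma adjusted p = 0.0439). Ccn2 had 7.99, 6.20, 5.62, 6.14 and 9.40 CPM in benzene livers, against 4.12, 4.64, 4.52, 5.71 and 4.41 CPM in air livers, and its change of 0.49 ± 0.16 did not pass the test (limma adjusted p = 0.162). Tgfb1 had a change of -0.28 ± 0.17. Of the 11 stellate cell markers tested 0 were called by limma. Ecm1 and Reln, the most abundant, had changes of -0.04 ± 0.08 and 0.24 ± 0.12, and the markers summed to 177 to 202 CPM in benzene livers and 173 to 207 CPM in air livers. Fibroblast, endothelial and cartilage markers also had 0 called by limma, of 6, 8 and 3 tested. The most abundant of them had changes of 0.05 ± 0.10 (Gsn), 0.09 ± 0.21 (Pdgfrb), -0.03 ± 0.12 (Kdr), 0.01 ± 0.15 (Egfl7), -0.02 ± 0.08 (Prg4) and 0.17 ± 0.16 (Cnmd). Sox9, which also marks bile ducts, had 3.26 to 4.52 CPM with benzene and 2.38 to 3.86 CPM with air.

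The response to benzene was also compared between the tissues for the 17 collagens tested in both, as the liver change minus the lung change. The labels do not say whether liver and lung came from the same mice, and the fit treated all libraries as separate. By limma, 0 of 17 differed, against 1.41% of 11266 genes, and by edgeR and DESeq2 also 0. At an unadjusted p under 0.05 there were 2, Col12a1 and Col15a1, against 13.9% of all genes. For Col12a1 the change was -0.35 in liver and 0.32 in lung, a difference of -0.67 ± 0.21 (SE, limma adjusted p = 0.127). Without lung air replicate 5 it was -0.73 ± 0.20 and passed the threshold (limma adjusted p = 0.0495), where 2.91% of all genes did. The Col12a1 difference was called in 3 of 30 alternative settings. Its values rest on 7 to 23 reads a library in liver and 204 to 412 in lung. The scale log2(CPM + 1) understates the change of low genes, so the changes of the tissues are not on a like footing. For Col15a1 the change was 0.22 in liver and -0.30 in lung, a difference of 0.52 ± 0.23 (limma adjusted p = 0.308).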

How the data were processed

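Collagen genes and the partner lists were chosen with earlier results of these data known. The authors deposited 1 table per tissue, with signal values per library that the headers call CPM; the submitters' processing notes name fastp 0.20.0, STAR, edgeR 3.10 and GRCm38, while the sources used here do not name a counter or an annotation. The columns do not sum to 1 shared total. In every library 100% of values were whole multiples (within 0.01) of the value of a single read, so read counts were recovered. Liver libraries headed T were read as benzene.

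Genes with at least 1 CPM in 5 liver or 6 lung libraries were tested with limma 3.58.1 (R 4.3.3, trend) on log2(CPM + 1), each tissue alone, two-sided, with Benjamini-Hochberg adjustment at 0.05; both tissues entered 1 fit for the difference. Alternatives used edgeR 4.0.16, DESeq2 1.42.0, TMM scaling, other filters and pseudocounts, array weights, a replicate block and leaving out each library. Every collagen was named; of other lists, up to 4 called genes per tissue and direction, or else the most abundant, plus 9 fixed genes. Genes named for calls without air replicate 5 were added after the values were seen. Coordinates and exon lengths come from GENCODE M21 (GRCm38). The fits were tested on simulated data. The result of 1 gene is not reported here.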

Additional observations from a re-analysis of the deposited data

Results flagged for a closer look

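Within each group of 5 or 6 libraries, a value was singled out when its gap to the nearest other library took up an unusual part of the whole range of the group. Of 100 groups checked (1 gene in 1 tissue and exposure), 15 held such a value. For separate groups chance gives about 1 in 20, but these groups share the same libraries, so that rate is only a guide. Of the 15, 11 were in air replicate 5 of lung. It was far below the other air lungs for Col1a1 (38.5 CPM), Col3a1 (87.1 CPM), Col4a2 (87.3 CPM), Col6a1 (68.7 CPM), Col5a1 (26.5 CPM), Col5a2 (23.8 CPM), Col14a1 (23.5 CPM), Col16a1 (25.2 CPM) and Col18a1 (18.9 CPM). It was far above them for Col27a1 (31.9 CPM) and Col9a2 (3.30 CPM). In benzene lungs, Col10a1 stood high in replicate 2 (2.95 CPM, next highest 1.53 CPM) and Col28a1 low in replicate 4 (0.709 CPM, next lowest 2.30 CPM). In benzene livers, Col15a1 stood low in replicate 4 (1.99 CPM, next lowest 3.67 CPM) and Col6a1 low in replicate 3 (2.96 CPM, next lowest 4.86 CPM).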

How the results depend on the processing

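In lung, Col17a1 and Col4a3 were called in 20 of 20 alternatives and Col23a1 in 19, while Col10a1 was called in 4 of 19. The lung count of 4 called collagens became 7 with array weights and 2 with the replicate number as a block, which left Col17a1 and Col4a3 called. Leaving out each library in turn gave 3 to 8, with 8 without air replicate 5. With all 22 libraries in 1 fit it was 0 of 17, since the 4 called genes are not in the liver table. It was 3 with a pseudocount of 0.1, no filter, a stricter filter, TMM scaling or edgeR, and 6 with DESeq2. The liver count of 0 became 1 with array weights (Col5a3) and stayed 0 without each library and with the block. The count of responses that differ between tissues became 1 with array weights, and leaving out each library gave 0 to 1; each time it was Col12a1, without liver air replicate 5 or lung air replicate 5. No called value changed sign. Same-numbered benzene and air libraries correlated between -0.364 and 0.193 in their deviations, and 1 of 11 numbers matched best with itself, so the numbers were not taken to pair benzene with air. The labels do not say whether liver and lung libraries share mice; those of 1 group and number correlated between -0.459 and 0.580 (2 of 10 matched best with themselves). A fit with group and number as a block across tissues, chosen after seeing the data, also called 0 of 17 differing responses, and 68 genes in place of 159. The causes were not tested. Depth limits Col10a1, with 0 to 25 reads a library. Over all genes, the lung count of 891 became 1669 with DESeq2, 3215 with array weights, 414 with the block, 489 with all 22 libraries in 1 fit, 2302 without air replicate 5 and 587 without benzene replicate 1. The liver count of 186 became 318 with DESeq2, 461 with array weights and 74 with all libraries in 1 fit, and was 99 to 119 without 6 single libraries (air replicates 2 to 5, benzene replicates 1 and 5). The count of differing responses, 159, became 377 with DESeq2, 507 with array weights, 59 with the block, 328 without lung air replicate 5 and 89 to 105 without 5 single libraries (liver benzene replicates 1 and 4, lung benzene replicates 1, 5 and 6).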
